A study of Oryza sativa with 7 samples.

Results

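The rice genes described here act in or around lignin formation. They were taken by the wording of their descriptions in the deposited tables, which had to contain dirigent, laccase, caffeic, caffeoyl, cinnamyl, cinnamoyl, 4-coumarate or phenylalanine ammonia-lyase. This wording found 82 of 26168 genes. The members were 8 phenylalanine ammonia-lyase (PAL) genes, 1 gene of the 4-coumarate CoA ligase (4CL) family, 10 cinnamoyl-CoA reductase (CCR) genes, 6 caffeoyl-CoA O-methyltransferase (CCoAOMT) genes, 2 caffeic acid O-methyltransferase genes, 22 laccase genes and 33 dirigent genes. The wording cinnamyl found 0 genes, so cinnamyl alcohol dehydrogenases are not among the members.

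The data are mRNA profiles of *mir156* mutants of the cultivar Nipponbare, a *japonica* rice, in which CRISPR/Cas9 had mutated several *MIR156* genes at once. Unelongated culms, the short stem bases of seedlings whose internodes have not extended, came from 20-day-old seedlings of *mir156abckl* (5 mutated *MIR156* genes), of *mir156defghi* (6 mutated genes) and of the wild type. Embryos of fresh seeds (freshly harvested and not dried) and shoots of 2-week-old seedlings came from *mir156abcdfghikl* (10 mutated genes) and from the wild type. The *mir156abcdfghikl* embryos and shoots carry different line codes in the labels, and each mutant group carries the code of 1 line, so genotype and line cannot be told apart. The labels say that the seeds were sown in a paddy field.

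Each table holds 1 FPKM value (mapped fragments scaled for exon length and library size) per group and gene over 3 biological repeats, and the read depth of the repeats is unknown. No error can therefore be given for any value below, no difference was tested, and a ratio has no replicate check. A member is written below as at least 2-fold higher or lower where the ratio of the FPKM values, mutant over wild type, was at least 2 or at most 0.5 and the mean of both groups was at least 1 FPKM. A gene can reach that mean through 1 of the groups alone, so the counts are a description. The log2 ratio is that of the FPKM values with nothing added.

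Lignin is the aromatic polymer that stiffens and waterproofs the secondary walls of xylem and fibre cells. PAL takes the amino group off phenylalanine and so opens the phenylpropanoid pathway, which also leads to flavonoids and other phenolics. Enzymes of the 4CL family join cinnamic acids to coenzyme A, CCoAOMT and caffeic acid O-methyltransferase add the methyl groups of the ring, and CCR makes the aldehydes that are reduced to monolignols. Laccases and class III peroxidases oxidise monolignols in the wall, where the radicals couple to lignin, and dirigent proteins steer the coupling of such radicals to defined products. miR156 represses a group of the SPL (SBP-box) transcription factors and keeps plants juvenile.

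The tissues carried their labels' marker genes. Oleosin genes, which coat the oil bodies of seeds, summed to 28563 FPKM in *mir156abcdfghikl* embryos and 34635 FPKM in wild-type embryos, and to at most 8.06 FPKM in any culm or shoot group. Endosperm storage genes were present in the embryo samples, where the 22 prolamin genes summed to 40041 FPKM in the mutant and 53594 FPKM in the wild type. The 12 glutelin genes summed to 12799 FPKM in the mutant and 14302 FPKM in the wild type. SBP-box genes, miR156 targets and others together, summed to 460.7 FPKM in *mir156abckl* and 634.5 FPKM in *mir156defghi* culms, against 421.9 FPKM in wild-type culms. They summed to 258.7 FPKM in *mir156abcdfghikl* embryos against 129.1 FPKM in wild-type embryos, and to 503.3 FPKM in mutant shoots against 257.9 FPKM in wild-type shoots. The chlorophyll A-B binding genes of the photosynthetic antenna summed to 8390 FPKM in *mir156abcdfghikl* shoots and 50102 FPKM in wild-type shoots, with 16 of 17 at least 2-fold lower. In culms they summed to 939.3 FPKM in *mir156abckl*, against 634.3 FPKM in the wild type, with 17 of 17 higher, and to 1153 FPKM in *mir156defghi*, against 630.9 FPKM in the wild type of that table, with 16 of 17 higher. The part of these differences in the shoot and culm results below was not tested. In whole organs, fewer cells of a type and less RNA per cell cannot be told apart. Over all genes with a mean of at least 1 FPKM the median log2 ratio was -0.02, -0.03 and 0.03 in *mir156abckl* culms, *mir156defghi* culms and embryos, and 0.14 in shoots.

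Members were listed in the tables for 75 genes in *mir156abckl* culms, 73 in *mir156defghi* culms, 34 in embryos and 70 in shoots. In *mir156abckl* culms 13 of the 66 members with a mean of at least 1 FPKM were at least 2-fold higher and 12 at least 2-fold lower. These are 19.7% and 18.2%, against a background of 5.51% and 6.56% of all genes, and together 37.9% against 12.1%. In *mir156defghi* culms 6 of 64 were at least 2-fold higher and 12 at least 2-fold lower, or 9.38% and 18.8% against 4.61% and 5.54% of all genes, and together 28.1% against 10.1%. In *mir156abcdfghikl* embryos 7 of 30 were at least 2-fold higher and 1 at least 2-fold lower, or 23.3% and 3.33% against 4.14% and 2.59% of all genes, and together 26.7% against 6.73%. In *mir156abcdfghikl* shoots 21 of 55 were at least 2-fold higher and 12 at least 2-fold lower, or 38.2% and 21.8% against 25.9% and 22.6% of all genes, and together 60% against 48.4%. The share of members past the limits was thus above that of all genes in every comparison, and in shoots the share that was lower was close to the background. The background in shoots depends on the scaling. Summed over all genes, mutant FPKM was 0.92 of the wild type in each culm comparison. It was 0.85 in embryos and 0.74 in shoots. Class counts and sums below are to be read beside these ratios and the shares of all genes above. With both columns scaled to the same summed FPKM, 7712 genes were at least 2-fold higher and 3421 at least 2-fold lower in shoots, in place of 5470 and 4771, and in embryos 1224 and 311, in place of 795 and 497. Of the members, 23 were then higher and 10 lower in shoots, and 8 higher and 1 lower in embryos.

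The classes did not move alike. Most PAL genes were lower in culms and shoots, CCoAOMT genes mostly stayed within 2-fold, laccases spread widely in both directions, and dirigent genes were mostly higher in *mir156abckl* culms and in *mir156abcdfghikl* shoots.

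**Figure D1:**
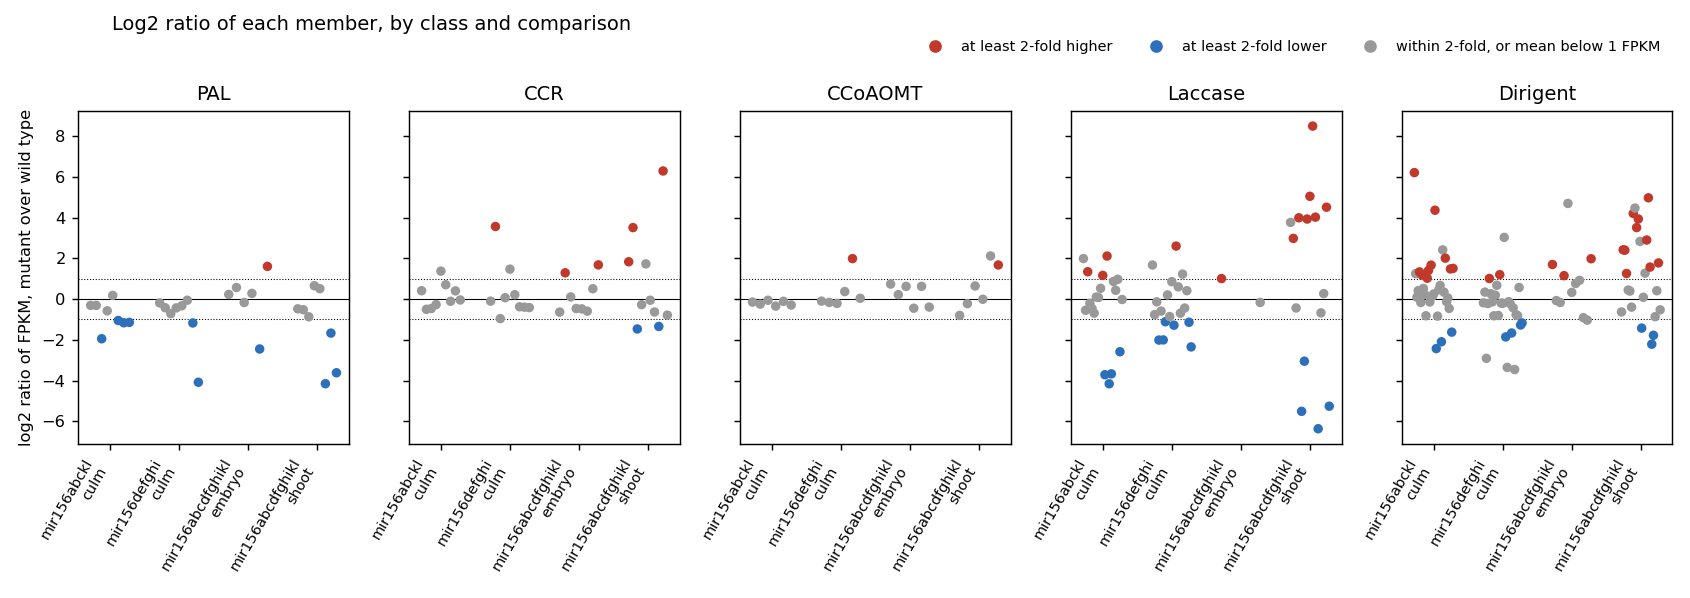
Log2 ratio of FPKM, mutant over wild type (vertical axis), of each listed member above 0 in both groups, in 5 classes (panels) and 4 comparisons (horizontal axis), with dotted lines at 2-fold. Points at least 2-fold higher are red and those at least 2-fold lower blue, and grey points lie within 2-fold or have a mean below 1 FPKM. PAL points lie mostly below 0 in culms and shoots, and laccase points in shoots run from -6.36 to 8.49.

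PAL transcripts were the most abundant of all members. In culms the 8 PAL genes summed to 2779 FPKM in *mir156abckl* and 2868 FPKM in *mir156defghi*, against 3443 FPKM in the wild type. Wild-type culm values are given from the *mir156abckl* table. The *mir156defghi* table holds the same wild-type columns times 0.994 (the median over genes), so the culm comparisons share their wild type and are given side by side only. In *mir156abckl* culms 7 of the 8 PAL genes were lower and 4 of them at least 2-fold lower, with a median log2 ratio of -0.82. In *mir156defghi* culms 8 of 8 were lower and 2 at least 2-fold lower, with a median of -0.43. The shares at least 2-fold lower were 50% and 25%, against 6.56% and 5.54% of all genes. The medians over all genes were -0.02 and -0.03. With equal summed FPKM, 7 of 8 were lower in each culm mutant.

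LOC_Os02g41630, on chromosome 2 (24973385 to 24977336, TIGR release 7, as for every position below), was the most abundant member in every group. It had 2060 FPKM in *mir156abckl* and 2228 FPKM in *mir156defghi* culms, against 2556 FPKM in wild-type culms. In *mir156abcdfghikl* it had 263 FPKM in embryos against 225 FPKM in wild-type embryos, and 988 FPKM in shoots against 1377 FPKM in wild-type shoots. Each of these ratios was within 2-fold, with log2 values of -0.31, -0.19, 0.23 and -0.48. LOC_Os02g41650, the next gene of the same tandem array, had 478 and 439 FPKM in *mir156abckl* and *mir156defghi* culms against 593 FPKM in wild-type culms, 140 FPKM in mutant embryos against 94.7 FPKM in wild-type embryos, and 417 FPKM in mutant shoots against 599.8 FPKM in wild-type shoots. Both abundant PAL genes were thus lower in every seedling tissue and higher in embryos, by less than 2-fold.

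The larger differences were in PAL genes of lower level. LOC_Os05g35290 (chromosome 5, 20953409 to 20955923) was the member past the 2-fold limits in all 4 comparisons. It had 31.1 FPKM in *mir156abckl* and 30.7 FPKM in *mir156defghi* culms, against 69.7 FPKM in wild-type culms (log2 -1.16 and -1.17). In shoots it had 12.9 FPKM in *mir156abcdfghikl* and 41.0 FPKM in the wild type (log2 -1.67). In embryos the order was the other way, with 3.58 FPKM in the mutant and 1.18 FPKM in the wild type (log2 1.60).

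LOC_Os12g33610 (chromosome 12, 20292892 to 20295410) was lower in each seedling comparison and was not listed in embryos. It had 1.14 FPKM in *mir156abckl* and 0.149 FPKM in *mir156defghi* culms, against 2.53 FPKM in wild-type culms. In shoots it had 16.2 FPKM in *mir156abcdfghikl* against 199 FPKM in the wild type (log2 -3.62). LOC_Os04g43800 (chromosome 4, 25926987 to 25929732) had 2.44 FPKM in mutant shoots against 43.4 FPKM in wild-type shoots (log2 -4.15), and 1.46 FPKM in mutant embryos against 7.95 FPKM in wild-type embryos (log2 -2.45). In culms it had 1.30 FPKM in *mir156abckl* and 2.59 FPKM in *mir156defghi*, against 2.70 FPKM in the wild type. The *mir156abckl* differences of LOC_Os12g33610 and LOC_Os04g43800 were within 2-fold once 1 FPKM was added to both groups, whereas their shoot differences did not.

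The other 3 PAL genes completed the array on chromosome 2 and its counterpart on chromosome 4. LOC_Os02g41670 had 1.97 FPKM in *mir156abckl* and 4.61 FPKM in *mir156defghi* culms, against 7.6 FPKM in wild-type culms, and was at about 1 FPKM or below in shoots. LOC_Os02g41680 had 30.7 FPKM in *mir156abcdfghikl* shoots against 19.6 FPKM in wild-type shoots, and LOC_Os04g43760 had 123 FPKM against 86.8 FPKM. These were the PAL genes that were higher in mutant shoots, both within 2-fold. Over the 8 genes, 3 were at least 2-fold lower and 0 at least 2-fold higher in shoots. Among the 7 with a mean of at least 1 FPKM these are 42.9% and 0%, against 22.6% and 25.9% of all genes. The median log2 ratio was -0.70 beside 0.15 over all genes. The sums were 1591 FPKM in the mutant and 2368 FPKM in the wild type, a ratio of 0.67 beside 0.74 over all genes. With equal summed FPKM the median was -0.27 beside 0.59 over all genes, 6 of 8 were still lower, and 1 was at least 2-fold higher and 3 at least 2-fold lower. In embryos 4 of 6 listed PAL genes were higher, and the sums were 473.7 FPKM in the mutant and 383.1 FPKM in the wild type. Members of tandem arrays share sequence, and how the authors' counting divided reads between such copies is not known, so the values of single copies are less certain than the array's.

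**Figure D2:**
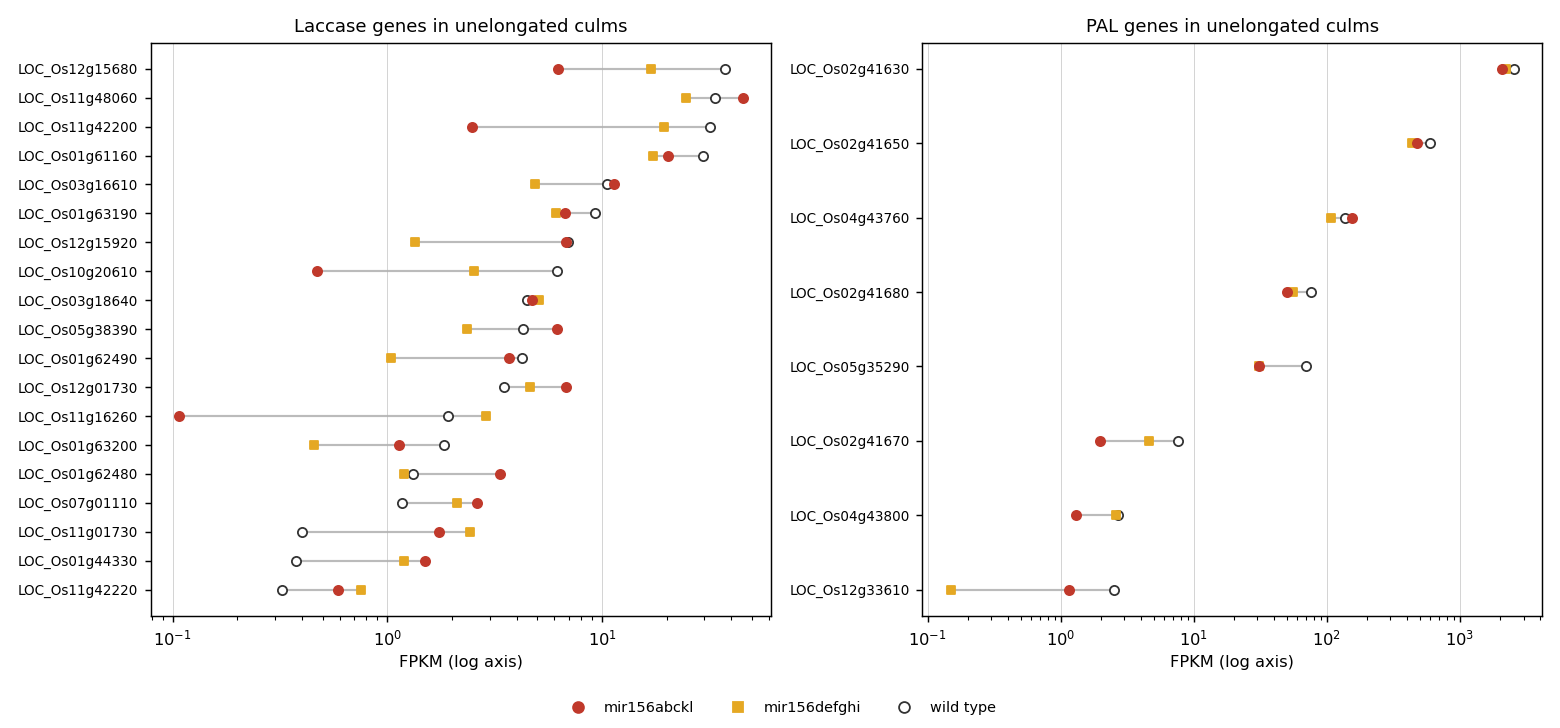
FPKM on a log axis (horizontal) of the laccase genes (left) and PAL genes (right) listed in both culm tables, 1 gene per line, ordered by the wild-type level. Filled circles are mir156abckl, squares mir156defghi and open circles the wild type. LOC_Os05g35290 lies at 31.1 and 30.7 FPKM in the mutants and 69.7 FPKM in the wild type, and LOC_Os12g15680 at 6.21 and 16.8 FPKM against 37.3 FPKM.

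LOC_Os03g05780, the member described as of the 4CL family, had 37.2 FPKM in *mir156abckl* and 42.0 FPKM in *mir156defghi* culms, against 42.7 FPKM in wild-type culms. It had 27.8 FPKM in *mir156abcdfghikl* embryos against 23.6 FPKM in wild-type embryos, and 25.0 FPKM in mutant shoots against 42.1 FPKM in wild-type shoots. All 4 ratios were within 2-fold.

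The CCoAOMT genes, whose product methylates caffeoyl-CoA to feruloyl-CoA, summed to 806.1 FPKM in *mir156abckl* and 780.0 FPKM in *mir156defghi* culms, against 861.8 FPKM in wild-type culms. The ratios of 0.94 and 0.91 were close to 0.92 over all genes. In *mir156abckl* culms 6 of 6 were lower, by at most 0.35 on the log2 scale, and 4 of 6 were lower with equal summed FPKM. LOC_Os08g38900 carried most of this transcript, with 630 FPKM in *mir156abckl* and 563 FPKM in *mir156defghi* culms against 656 FPKM in wild-type culms. In shoots the sums were nearly equal, 913.9 FPKM in *mir156abcdfghikl* and 902.2 FPKM in the wild type, but the genes behind them were not. LOC_Os06g06980 had 262 FPKM in mutant shoots against 457 FPKM in wild-type shoots, while LOC_Os08g38900 had 563 FPKM against 361 FPKM. In embryos LOC_Os08g38910 had 67.5 FPKM in the mutant and 92.2 FPKM in the wild type, and LOC_Os08g38900 had 48.8 FPKM and 31.7 FPKM. The CCoAOMT genes at least 2-fold apart were LOC_Os08g38920 in *mir156defghi* culms (3.26 FPKM against 0.824 FPKM in the wild type of that table) and LOC_Os09g30360 in shoots (7.65 FPKM in the mutant against 2.40 FPKM in the wild type).

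The caffeic acid O-methyltransferase genes were near the floor. LOC_Os04g09680 had 0.650 FPKM in *mir156abckl* and 0.943 FPKM in *mir156defghi* culms, against 1.68 FPKM in wild-type culms, which put the *mir156abckl* value at least 2-fold lower unless 1 FPKM was added. LOC_Os12g13810 had 1.07 FPKM in *mir156defghi* culms against 0.109 FPKM in the wild type of that table, and was listed at 0 in *mir156abcdfghikl* shoots against 1.52 FPKM in wild-type shoots.

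CCR makes the monolignol aldehydes and gave a split picture. In *mir156abckl* culms 0 of the 7 CCR genes with a mean of at least 1 FPKM were past 2-fold. The most abundant in culms were LOC_Os08g34280, with 140 FPKM in *mir156abckl* and 80.2 FPKM in *mir156defghi* against 106 FPKM in the wild type, and LOC_Os09g25150, with 134 FPKM and 103 FPKM against 138 FPKM. The first of them (chromosome 8, 21506418 to 21513656) had 67.3 FPKM in *mir156abcdfghikl* shoots against 171 FPKM in wild-type shoots (log2 -1.34). LOC_Os09g25150 (chromosome 9, 15076123 to 15079326) had 12 FPKM in mutant embryos against 3.77 FPKM in wild-type embryos (log2 1.68), and 74.5 FPKM in mutant shoots against 129 FPKM in wild-type shoots. LOC_Os01g45200 (chromosome 1, 25640718 to 25647224) had 3.06 FPKM in mutant embryos against 1.26 FPKM in wild-type embryos (log2 1.29, and 0.85 with 1 FPKM added), and 8.77 FPKM in mutant shoots against 24.2 FPKM in wild-type shoots (log2 -1.47). LOC_Os03g60380, the most abundant CCR gene of wild-type embryos, had 28.8 FPKM in mutant embryos and 40.2 FPKM in wild-type embryos.

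Low-level CCR genes went the other way in shoots. LOC_Os09g08720 (chromosome 9, 4592169 to 4595244) had 35.7 FPKM in *mir156abcdfghikl* shoots and 0.458 FPKM in wild-type shoots, a log2 ratio of 6.28. In culms it had 3.60 FPKM in *mir156defghi*, was listed at 0 in the wild type and was not listed in the *mir156abckl* table. LOC_Os01g18120 (chromosome 1, 10148776 to 10152520) had 7.91 FPKM in *mir156defghi* culms against 0.671 FPKM in the wild type of that table (log2 3.56), and 0.476 FPKM in *mir156abckl* culms. It also had 12.7 FPKM in *mir156abcdfghikl* shoots against 1.11 FPKM in wild-type shoots (log2 3.51). LOC_Os01g18120 and LOC_Os09g08720 were thus both higher in *mir156defghi* culms and in *mir156abcdfghikl* shoots. LOC_Os01g18110, the neighbour of LOC_Os01g18120, had 3.70 FPKM in mutant shoots against 1.04 FPKM in wild-type shoots. Summed over the class, CCR stood at 230.8 FPKM in mutant shoots and 358.9 FPKM in wild-type shoots, with the most abundant genes among the lower ones. This is a ratio of 0.64, beside 0.74 over all genes. The median log2 ratio of the class in shoots was -0.17 as deposited. With equal summed FPKM it was 0.26, and 6 of 10 were then higher.

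**Figure D3:**
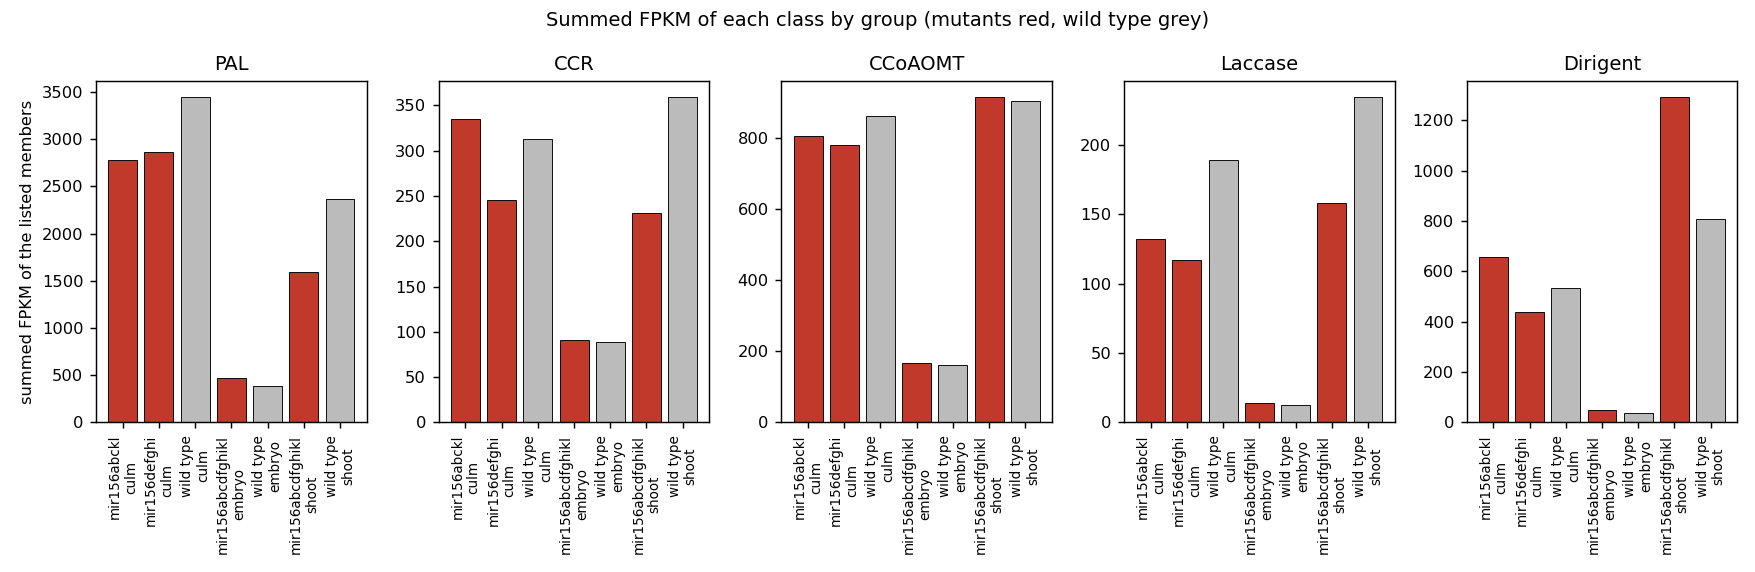
Summed FPKM (vertical axis, a scale of its own in each panel) of the listed members of 5 classes in the 7 groups, with mutants in red and the wild type in grey. The tables were scaled separately, so bars are to be compared within a tissue. Summed over all genes, mutant FPKM was 0.92 of the wild type in culms, 0.85 in embryos and 0.74 in shoots. PAL stands at 1591 FPKM in mutant shoots and 2368 FPKM in wild-type shoots, and dirigent genes stand at 1292 FPKM and 809.7 FPKM.

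Laccases are copper oxidases of the wall. In culms, 19 laccase genes were listed, and they summed to 132.0 FPKM in *mir156abckl* and 117.3 FPKM in *mir156defghi*, against 189.1 FPKM in the wild type. In *mir156abckl* 3 of 17 with a mean of at least 1 FPKM were at least 2-fold higher and 4 at least 2-fold lower. These are 17.6% and 23.5%, against 5.51% and 6.56% of all genes. In *mir156defghi* 1 of 17 was higher and 6 lower, or 5.88% and 35.3% against 4.61% and 5.54% of all genes. There 12 of 19 listed genes were below the wild type, with a median log2 ratio of -0.59. The *mir156abckl* median was 0.07.

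Some genes that were abundant in wild-type culms were among the lower ones, while the abundant LOC_Os11g48060, given below, was within 2-fold (log2 0.43 and -0.44). The wild-type level is also the divisor of the ratio, so no link between level and direction can be read from this. LOC_Os12g15680 (chromosome 12, 8960776 to 8964018), the most abundant laccase of wild-type culms, had 6.21 FPKM in *mir156abckl* and 16.8 FPKM in *mir156defghi*, against 37.3 FPKM in the wild type (log2 -2.58 and -1.14). LOC_Os11g42200 (chromosome 11, 25423700 to 25426214) had 2.49 FPKM in *mir156abckl* and 19.5 FPKM in *mir156defghi*, against 31.7 FPKM in the wild type (log2 -3.67 and -0.69). LOC_Os10g20610 had 0.473 FPKM and 2.54 FPKM, against 6.20 FPKM (log2 -3.71 and -1.28). Each of these was lower in both mutants and lowest in *mir156abckl*. Other laccases were lower by at least 2-fold in *mir156defghi* but not in *mir156abckl*. LOC_Os12g15920 had 6.81 FPKM in *mir156abckl* and 1.35 FPKM in *mir156defghi*, against 6.92 FPKM in the wild type, LOC_Os03g16610 had 11.4 FPKM and 4.87 FPKM, against 10.6 FPKM, and LOC_Os01g62490 had 3.67 FPKM and 1.04 FPKM, against 4.23 FPKM. Whether the mutants differ from each other was not tested.

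LOC_Os11g48060 was the most abundant laccase of the culms of both mutants, with 45.4 FPKM in *mir156abckl* and 24.7 FPKM in *mir156defghi*, against 33.7 FPKM in the wild type. It stayed within 2-fold in all 4 comparisons, with 8.42 FPKM in *mir156abcdfghikl* embryos against 9.46 FPKM in wild-type embryos and 12.9 FPKM in mutant shoots against 10.7 FPKM in wild-type shoots. The laccase listed beside it in embryos was LOC_Os01g63190, with 5.83 FPKM in the mutant and 2.91 FPKM in the wild type.

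In shoots the laccases differed widely and in both directions. Of 19 listed genes 12 were higher in *mir156abcdfghikl* and 7 lower, and 15 of the 19 differed by at least 8-fold or were listed at 0 in 1 group. Among the 14 with a mean of at least 1 FPKM, 7 were at least 2-fold higher and 4 at least 2-fold lower. These are 50% and 28.6%, against 25.9% and 22.6% of all genes, so the lower share was near the background. The 15 are 78.9% of the listed laccases, beside 14.1% of all listed genes, and among genes with a mean of at least 1 FPKM the shares were 71.4% (10 of 14) and 12.5%. Most that were higher stood at very low values in the wild type, which is the divisor of the ratio here too. LOC_Os07g01110 (chromosome 7, 58609 to 60650) had 12.6 FPKM in mutant shoots and 0.0351 FPKM in wild-type shoots, a log2 ratio of 8.49, which was 3.71 with 1 FPKM added to both groups. LOC_Os01g62490 (chromosome 1, 36177288 to 36180127) had 23.9 FPKM against 1.51 FPKM (log2 3.99), and LOC_Os03g16610 (chromosome 3, 9167557 to 9170334) had 11.4 FPKM against 0.748 FPKM (log2 3.93). LOC_Os01g61160 had 18.5 FPKM against 2.35 FPKM. LOC_Os03g18640, LOC_Os05g38390 and LOC_Os05g38410 had 1.43, 1.99 and 1.55 FPKM in mutant shoots and were listed at 0 in wild-type shoots.

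The laccases that were lower included the most abundant one of wild-type shoots. LOC_Os01g63190 (chromosome 1, 36622826 to 36627675) had 15.0 FPKM in *mir156abcdfghikl* shoots and 124 FPKM in wild-type shoots (log2 -3.05), where it made up 53.1% of the summed laccase FPKM. LOC_Os12g15680 had 0.290 FPKM in mutant shoots against 11.1 FPKM in wild-type shoots (log2 -5.26), and LOC_Os11g42200 had 0.118 FPKM against 9.70 FPKM (log2 -6.36). LOC_Os12g15680 was lower by at least 2-fold in every comparison in which it was listed, and LOC_Os11g42200 in *mir156abckl* culms and in shoots. LOC_Os01g63180, beside LOC_Os01g63190, had 0.0717 FPKM in mutant shoots and 3.26 FPKM in wild-type shoots. LOC_Os01g62480 and LOC_Os11g42220, at 33.3 and 14.7 FPKM in mutant shoots and 45.1 and 23.5 FPKM in wild-type shoots, stayed within 2-fold. The class summed to 158.3 FPKM in mutant shoots and 234.4 FPKM in wild-type shoots, although most of its genes were higher. This is a ratio of 0.68, beside 0.74 over all genes.

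**Figure D4:**
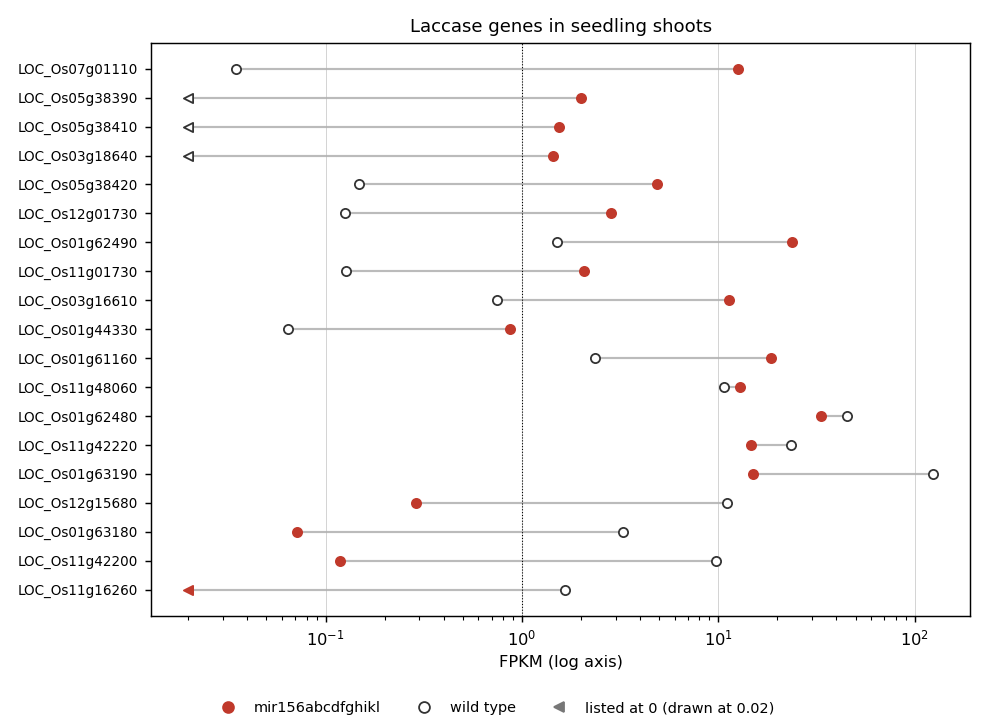
FPKM on a log axis (horizontal) of each laccase gene listed in seedling shoots, 1 gene per line, ordered by the ratio. Filled circles are mir156abcdfghikl and open circles the wild type, triangles mark values listed at 0, and the dotted line is at 1 FPKM. LOC_Os07g01110 lies at 12.6 FPKM in the mutant and 0.0351 FPKM in the wild type, and LOC_Os01g63190 at 15.0 FPKM and 124 FPKM.

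LOC_Os11g01730 and LOC_Os12g01730, laccase genes near the start of chromosomes 11 and 12, were low and higher in every listed comparison. LOC_Os11g01730 had 1.74 FPKM in *mir156abckl* and 2.43 FPKM in *mir156defghi* culms, against 0.403 FPKM in wild-type culms, and 2.07 FPKM in *mir156abcdfghikl* shoots against 0.127 FPKM in wild-type shoots. LOC_Os12g01730 had 6.81 FPKM and 4.6 FPKM in the culms of the mutants against 3.48 FPKM, and 2.84 FPKM in mutant shoots against 0.125 FPKM in wild-type shoots. With 1 FPKM added, the *mir156abckl* ratio of LOC_Os11g01730 was within 2-fold.

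Dirigent genes were mostly higher in *mir156abckl* culms and mostly lower in *mir156defghi* culms. In *mir156abckl* 22 of 31 listed genes were higher, 10 of them at least 2-fold among the 27 with a mean of at least 1 FPKM, and 3 were at least 2-fold lower, with a median log2 ratio of 0.41. In *mir156defghi* 19 of 27 were lower, with 4 at least 2-fold lower, 2 at least 2-fold higher and a median of -0.22. The shares at least 2-fold higher and lower were 37.0% and 11.1% in *mir156abckl*, against 5.51% and 6.56% of all genes. In *mir156defghi* they were 9.09% and 18.2%, against 4.61% and 5.54%. The sums were 657.0 FPKM in *mir156abckl* and 437.9 FPKM in *mir156defghi*, against 534.5 FPKM in the wild type. The counts of higher and lower genes were the same with equal summed FPKM.

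LOC_Os07g44250 (chromosome 7, 26445631 to 26446523), the most abundant dirigent gene of culms, had 183.3 FPKM in *mir156abckl* and 102 FPKM in *mir156defghi*, against 90.3 FPKM in the wild type. LOC_Os01g25030 (chromosome 1, 14116997 to 14117889) was listed in the *mir156abckl* table alone, with 10.2 FPKM in the mutant and 0.139 FPKM in the wild type (log2 6.20). LOC_Os12g12600 (chromosome 12, 6945205 to 6948234) had 21.4 FPKM in *mir156abckl* and 3.33 FPKM in *mir156defghi*, against 7.56 FPKM in the wild type, so that the mutants lay on either side of the wild type (log2 1.503 and -1.17). With 1 FPKM added the *mir156defghi* value was -0.98, within 2-fold. LOC_Os12g07580 and LOC_Os10g25870 were lower in both, with 10.8 FPKM and 13.7 FPKM against 33.4 FPKM for LOC_Os12g07580, and 1.27 FPKM and 1.88 FPKM against 6.86 FPKM for LOC_Os10g25870.

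LOC_Os07g01600 and LOC_Os07g44370 were at least 2-fold higher in both culm mutants and in shoots. LOC_Os07g01600 (chromosome 7, 373731 to 375712) had 18.5 FPKM in *mir156abckl* and 16.4 FPKM in *mir156defghi* culms, against 8.19 FPKM in wild-type culms, and 70.7 FPKM in *mir156abcdfghikl* shoots against 29.7 FPKM in wild-type shoots. Its *mir156defghi* ratio was within 2-fold with 1 FPKM added. In embryos it was at 0.766 FPKM in the mutant and 0.807 FPKM in the wild type. LOC_Os07g44370 (chromosome 7, 26516295 to 26517347) had 17.0 FPKM and 12.2 FPKM in the culms of the mutants against 5.35 FPKM, and 13.6 FPKM in mutant shoots against 0.892 FPKM in wild-type shoots (log2 3.93).

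In shoots 17 of 25 listed dirigent genes were higher in *mir156abcdfghikl*. Of the 19 with a mean of at least 1 FPKM, 10 were at least 2-fold higher and 3 at least 2-fold lower. These are 52.6% and 15.8%, against 25.9% and 22.6% of all genes, so the lower share was below the background. The median log2 ratio was 1.25, beside 0.15 over all genes. The class summed to 1292 FPKM in the mutant and 809.7 FPKM in the wild type. LOC_Os11g42550 (chromosome 11, 25617706 to 25618704) had 429 FPKM in the mutant against 126 FPKM in the wild type (log2 1.77), and its neighbour LOC_Os11g42500 had 210 FPKM against 158 FPKM. LOC_Os11g07680 (chromosome 11, 3920099 to 3920826) had 45.6 FPKM against 1.46 FPKM (log2 4.97), and LOC_Os11g07670, beside it, 109 FPKM against 14.6 FPKM. LOC_Os07g44250 had 30.1 FPKM against 1.64 FPKM (log2 4.20), and LOC_Os07g44280, of the same array, 9.32 FPKM against 0.820 FPKM (log2 3.51). The dirigent genes that were at least 2-fold lower were LOC_Os08g28790, with 59.0 FPKM in the mutant against 159 FPKM in the wild type, LOC_Os11g10800, with 1.69 FPKM against 7.87 FPKM, and LOC_Os11g10850, with 2.45 FPKM against 8.41 FPKM.

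**Figure D5:**
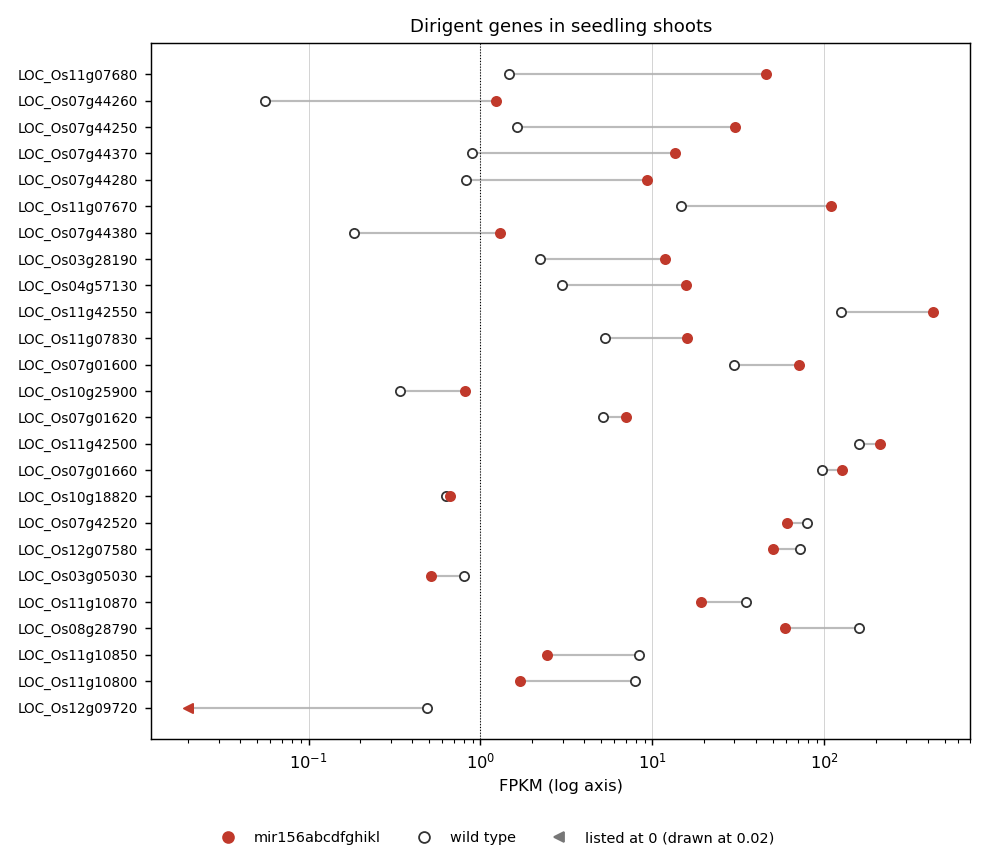
FPKM on a log axis (horizontal) of each dirigent gene listed in seedling shoots, 1 gene per line, ordered by the ratio. Filled circles are mir156abcdfghikl and open circles the wild type, triangles mark values listed at 0, and the dotted line is at 1 FPKM. LOC_Os11g07680 lies at 45.6 FPKM in the mutant and 1.46 FPKM in the wild type, and LOC_Os08g28790 at 59.0 FPKM and 159 FPKM.

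Few dirigent genes were expressed in embryos. Of 11 listed, 8 had a mean of at least 1 FPKM, and 3 of these were at least 2-fold higher in *mir156abcdfghikl* and 0 lower. The shares of 37.5% and 0% stand against 4.14% and 2.59% of all genes. LOC_Os12g07580 (chromosome 12, 3789861 to 3790727) had 8.83 FPKM in the mutant and 2.24 FPKM in the wild type (log2 1.98), LOC_Os07g42520 had 7.52 FPKM and 3.39 FPKM, and LOC_Os04g57130 had 1.67 FPKM and 0.516 FPKM. The most abundant, LOC_Os07g01660, had 15.6 FPKM in the mutant and 17.6 FPKM in the wild type. In the same mutant embryos 21 of 22 prolamin genes were below the wild type. Of the 12 glutelin genes, 6 were below the wild type and 6 above it, and 0 were at least 2-fold apart. Chlorophyll A-B binding genes summed to 259.3 FPKM in the mutant and 96.7 FPKM in the wild type. The part of these differences in the embryo results was not tested.

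Members of a class often lay next to each other. With gaps of at most 50 kb between members of the same class, 41 members fell into 15 runs of at least 2. Only some of the runs are described here. The dirigent run on chromosome 11 from LOC_Os11g07670 to LOC_Os11g07830 (3916717 to 3995784) has 5 members, of which 3 were listed in shoots. These 3 were at least 2-fold higher there, beside 25.9% of all genes, with LOC_Os11g07830 at 15.8 FPKM in the mutant and 5.33 FPKM in the wild type. LOC_Os11g07690 of this run, not listed in shoots, was at least 2-fold lower in the culms of both mutants. The run from LOC_Os11g10800 to LOC_Os11g10870 (5947362 to 5997541) had 2 of 3 at least 2-fold lower in shoots, beside 22.6% of all genes, with LOC_Os11g10870 at 19.3 FPKM against 35.1 FPKM. In the laccase run LOC_Os01g62480 and LOC_Os01g62490 the first was at least 2-fold higher in *mir156abckl* culms (3.34 FPKM against 1.32 FPKM), and the other at least 2-fold lower in *mir156defghi* culms.

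Across comparisons, 51 of the 82 members (62.2%) were past the 2-fold limits at least once, beside 46.6% of all 26168 genes, and 31 never. Of the 51, 27 were past them in 1 comparison, 16 in 2, 7 in 3 and 1 in all 4. These are 32.9%, 19.5%, 8.54% and 1.22% of the members, beside 34.9%, 8.13%, 3.23% and 0.417% of all genes, and the culm comparisons share their wild type. In shoots alone 14 members passed (17.1%, beside 29.2% of all genes). The 4 that were lower in 3 comparisons were the PAL genes LOC_Os04g43800, LOC_Os05g35290 and LOC_Os12g33610 and the laccase LOC_Os12g15680, and the 3 that were higher in 3 were LOC_Os11g01730, LOC_Os07g01600 and LOC_Os07g44370. They are 4.88% and 3.66% of the members, beside 1.30% and 1.72% of all genes. There were 8 members (9.76%, beside 2.64% of all genes) higher in 1 comparison and lower in another. The members nearest to the limits in *mir156abckl* culms were LOC_Os07g44250 (log2 1.02) and LOC_Os12g01730 (0.97) on the higher side, and LOC_Os04g43800 (-1.05) and LOC_Os07g42520 (-0.82) on the lower side. In *mir156defghi* culms they were LOC_Os07g01600 (1.01), LOC_Os07g01110 (0.85), LOC_Os03g16610 (-1.11) and LOC_Os01g45200 (-0.96). In embryos they were LOC_Os01g63190 (1.004), LOC_Os11g07830 (0.92), LOC_Os04g43800 (-2.45) and LOC_Os11g42500 (-0.91), and in shoots LOC_Os07g01600 (1.25), LOC_Os02g41680 (0.65), LOC_Os08g34280 (-1.34) and LOC_Os11g10870 (-0.87).

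Other genes of the pathway were taken by description, and their counts are again of genes with a mean of at least 1 FPKM. They are to be read beside the shares of all genes at least 2-fold higher and lower. These were 5.51% and 6.56% in *mir156abckl* culms, 4.61% and 5.54% in *mir156defghi* culms, 4.14% and 2.59% in embryos and 25.9% and 22.6% in shoots. Genes of aromatic amino acid supply, which make the phenylalanine that PAL uses, had 0 of 26 at least 2-fold higher and 1 lower in *mir156abckl* culms (median log2 ratio -0.32), 0 and 0 of 26 in *mir156defghi* culms (-0.28), 1 and 0 of 29 in embryos (0.13) and 3 and 9 of 26 in shoots (-0.75). With equal summed FPKM the shoot counts were 6 and 5. Class III peroxidases, which oxidise monolignols beside the laccases, had 15 higher and 15 lower of 94 in *mir156abckl* culms, 8 and 29 of 92 in *mir156defghi* culms, 5 and 6 of 45 in embryos and 34 and 22 of 74 in shoots. Like the laccases, they were mostly lower in *mir156defghi* culms, with a median log2 ratio of -0.48.

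Other O-methyltransferases had 0 higher and 9 lower of 19 in *mir156abckl* culms, 2 and 2 of 18 in *mir156defghi* culms, 3 and 1 of 6 in embryos and 7 and 7 of 19 in shoots. The flavonoid branch competes for the products of PAL and 4CL. Its list was taken by the words chalcone, flavonol, flavanone, leucoanthocyanidin, anthocyanidin or isoflavone reductase, and the part of each gene in flavonoid synthesis was not checked. The genes so described had 4 higher and 16 lower of 63 in *mir156abckl* culms, 5 and 7 of 64 in *mir156defghi* culms, 3 and 4 of 44 in embryos and 8 and 34 of 67 in shoots. The median log2 ratio of this list in shoots was -0.89 as deposited and -0.46 with equal summed FPKM. Genes described as transferase family proteins, which include acyltransferases of phenolic metabolism, had 2 and 9 of 49, 3 and 10 of 50, 3 and 3 of 31 and 12 and 15 of 52 in the same order of comparisons. Their shares in shoots, 23.1% higher and 28.8% lower, were near those of all genes, 25.9% and 22.6%. Genes described as CESA or cellulose synthase, not limited to those of secondary walls, had 4 and 0 of 33, 2 and 0 of 32, 0 and 0 of 28 and 21 and 3 of 33 in that order of comparisons. Their median log2 ratio in shoots was 1.15. The wording for cinnamate hydroxylation found 0 genes.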

How the data were processed

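Messenger RNA was profiled in 7 groups with 3 biological repeats each. The authors built stranded libraries, removed adapter and low-quality reads, aligned with HISAT2 to TIGR release 7, and deposited FPKM values computed by Cufflinks (version 2.2.1 in the submitters' processing notes), with 1 value per group in each of 4 comparison tables, each scaled on its own. The tables also hold the authors' log2 fold changes and cuffdiff p-values and q-values, which were not used. Without counts or values per repeat, depth is unknown and no test was run.

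From the FPKM columns the ratios were taken in pandas 2.3.3 and numpy 2.4.6 under Python 3.11.15, and matplotlib 3.10.9 drew the plots. Medians and counts of direction cover all listed members, with genes listed at 0 in 1 group ranked at the end of the order. The counting code was run on simulated data with little noise and planted differences larger than the ratio limit. This checks the code alone and tells nothing of calls near the limits or of the spread between repeats. Named members were the 3 most abundant of each class, up to 8 with the largest and smallest ratios per comparison above 5 FPKM, those past the limits in at least 3 comparisons or in opposite directions in embryos and shoots, and those nearest to the limits. Further members, such as LOC_Os04g43760, LOC_Os01g18110, LOC_Os01g61160, LOC_Os08g28790 and LOC_Os11g07670, were named after their values were seen. Members and lists were chosen with earlier results of these data known. The RefSeq gene table used here matched 0 of the IDs, so no sequence is shown. Alternatives tried were 1 FPKM added to both groups, no minimum level, a mean of at least 5 FPKM, ratio limits of 1.5 and 3, centring on the median of all genes, and, chosen after seeing the data, scaling to equal summed FPKM.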

Additional observations from a re-analysis of the deposited data

Results flagged for a closer look

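In *mir156abcdfghikl*, 3 members were at least 2-fold higher than the wild type in embryos and at least 2-fold lower in shoots. The difference between the tissues was not tested, and the embryo and shoot samples carry different line codes. The log2 ratio of the PAL gene LOC_Os05g35290 was 1.60 in embryos and -1.67 in shoots. That of the CCR gene LOC_Os01g45200 was 1.29 in embryos (3.06 FPKM against 1.26 FPKM) and -1.47 in shoots (8.77 FPKM against 24.2 FPKM). That of the laccase LOC_Os01g63190 was 1.004 in embryos and -3.05 in shoots. With 1 FPKM added to both groups the embryo ratios of LOC_Os01g45200 and LOC_Os01g63190 were within 2-fold, at 0.85 and 0.81, as was that of LOC_Os01g63190 with centring, at 0.98.

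The dirigent gene LOC_Os12g12600 had a log2 ratio of 1.503 in *mir156abckl* culms and -1.17 in *mir156defghi* culms against the same wild type. With 1 FPKM added the *mir156defghi* value was -0.98, within 2-fold, and the difference between the mutants was not tested.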

How the results depend on the processing

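The share of all genes, not of members, under the same setting stands in parentheses after each count. With 1 FPKM added or another ratio limit, the counts are of 66, 64, 30 and 55 members in *mir156abckl* culms, *mir156defghi* culms, embryos and shoots. With no minimum level they are of the 75, 73, 34 and 70 listed. The number of members with a mean of at least 5 FPKM is not given, so no member share can be read there. With 1 FPKM added to both groups, members at least 2-fold higher numbered 7 in *mir156abckl* culms (3.31%), 13 as reported, and 3 in embryos (2.12%), 7 as reported. A call needs a mean of at least 1 FPKM as well as the ratio. Of the log2 ratios of named members, 13 lost their call and 0 changed sign. The other 139 include ratios that had no call in either setting, so they are not all kept calls. A further 3 ratios, of members below that mean and so never called, also came within 2-fold. With no minimum level, 11 were higher in *mir156defghi* culms (5.86%), 6 as reported, and 2 lower in embryos (3.62%), 1 as reported. With a mean of at least 5 FPKM, 6 were higher (3.06%) and 4 lower (4.91%) in *mir156abckl* culms, 2 (2.67%) and 5 (3.87%) in *mir156defghi* culms and 3 (2.06%) and 0 (1.80%) in embryos, and the medians were -0.41 in *mir156defghi* culms and 0.27 in shoots. With no genes under a mean of 1 FPKM the shoot median was 0.27. A ratio limit of 1.5 gave 23 lower in *mir156defghi* culms (12.2%), and 12 higher (9.38%) and 3 lower (6.74%) in embryos. A limit of 3 gave 5 higher in *mir156abckl* culms (2.17%), 6 lower in *mir156defghi* culms (2.01%) and 4 higher in embryos (1.27%). Centring gave a shoot median of 0.26, put 1 ratio of a named member past the limits and 1 within them. Scaling to equal summed FPKM gave medians of 0.092 in *mir156abckl* culms, which was -0.02 as reported and so changed sign, -0.092 in *mir156defghi* culms, 0.49 in embryos and 0.83 in shoots. These follow from the scale factors and thresholds themselves. No paired analysis was possible because the tables hold 1 value per group, and leaving out single repeats was not possible for the same reason.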
